A study of Mus musculus with 6 samples.

Results

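The B7 ligands examined here are CD274 (PD-L1), PDCD1LG2 (PD-L2), CD80, CD86, CD276 (B7-H3), VSIR (VISTA), ICOSLG and VTCN1 (B7-H4). They were chosen by gene name, and all 8 have a row among the 20036 genes of the count table. B7 ligands are surface proteins of the immunoglobulin superfamily, carried mainly by cells that present antigen. CD80 and CD86 bind CD28, which stimulates T cells, and CTLA-4, which restrains them. PD-L1 and PD-L2 bind PD-1 and restrain activated T cells, ICOSLG binds ICOS, and B7-H3, VISTA and B7-H4 are mostly described as inhibitors of T cells. In macrophages, CD80 and CD86 are used as signs of activation, and PD-L1 is the target of the blockade named in the title of the series.

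RNA was sequenced from 3 melittin and 3 control libraries of THP-1 macrophages; THP-1 is a line of human monocytic leukaemia cells. Per the design text, which sets no group apart at this step, the cells received PMA at 100 ng/ml for 48 h in the lower compartment of a Transwell, a well divided by a porous membrane. PMA is a phorbol ester that turns THP-1 cells into adherent macrophages. In the melittin group tumour cells were then added above the membrane, with melittin, the main peptide of bee venom, at 3 µg/ml for 48 h. The control libraries are labelled NC, and the labels do not say whether their wells held tumour cells or which vehicle they received, so melittin and the co-culture cannot be told apart as the source of a difference. The tumour line is not named in the sources used here, and all macrophages come from 1 leukaemia line. The organism label reads mouse, but all 20036 gene identifiers were human and 0 were mouse. The labels do not tie replicates to separate cultures, and every p-value here reflects the spread among libraries that may be technical repeats.

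Total counts ran from 16192032 to 19521897 in the melittin libraries and from 16001423 to 19597781 in the control libraries. Levels are given as CPM, counts scaled to a common library size by edgeR's TMM method. Scaling by the total count only, without TMM, lowers the median log2 fold change of all tested genes by 0.23. Of 14 macrophage markers 13 could be tested, with 4 higher and 7 lower with melittin (1 and 11 without TMM). Over all tested genes 38.1% were higher and 38.3% lower. The 14 markers summed to 2705 to 2728 CPM with melittin, against 3585 to 3626 CPM in the controls. The 4 markers with the smallest adjusted p all fell, on the log2 scale CSF1R by 1.62, CD163 by 2.95, MSR1 by 2.81 and PTPRC by 1.40. The 4 markers called higher are not among these. CD68 had 1 count in all. Markers of T cells (7 in the table, 0 tested) summed to 0.201 to 0.501 CPM with melittin and 0 to 0.295 CPM in the controls, with CD3D, CD8A and CD8B at 0 counts. Markers of B cells (6, with 0 tested) summed to 0.891 to 1.21 CPM with melittin and 0.52 to 0.801 CPM in the controls, with MS4A1 and BLK at 0 counts. Of 8 markers of conventional dendritic cells 4 were tested, with 2 higher (BATF3 and ZBTB46) and 2 lower (CD1C and FLT3). ZBTB46 did not pass without TMM, with DESeq2 (adjusted p = 0.0732), without a filter, on either FPKM scale, against 1.5-fold or in 4 of 6 fits that left out a library. The 8 markers summed to 20.2 to 21.5 CPM with melittin and 23.5 to 24.4 CPM in the controls, and FCER1A and CLEC10A had 0 counts. Of 12 prostate epithelial markers KLK2, TMPRSS2, EPCAM, KRT18 and KRT5 had 0 counts in every library, and FOLH1 was lower with melittin, with 1, 5 and 2 counts against 22, 19 and 18 in the controls. Of 8 fibroblast and endothelial markers 3 were tested and 1, COL1A1, was higher, with sums of 308.0 to 321.9 CPM with melittin and 304.2 to 314.2 CPM in the controls. COL1A1 did not pass without TMM (adjusted p = 0.0507, edgeR), on either FPKM scale (adjusted p = 0.0882 and 0.0849, limma) or against 1.5-fold. The part of these markers in the results on B7 ligands was not tested. In bulk RNA, fewer cells of a type and less RNA per cell cannot be told apart.

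CD80 showed the largest rise of the 8 members, CD274, VSIR and ICOSLG were each 2.02-fold to 2.47-fold higher with melittin, and PDCD1LG2 was 1.65-fold higher. CD86 and CD276 did not pass the test, and VTCN1 was near 0 counts. Genes were compared by edgeR's quasi-likelihood test on counts, with Benjamini-Hochberg adjustment over the 12029 genes with enough counts and a threshold of 0.05. Of the 8 members 7 were tested, of which 5 were higher and 0 lower with melittin. CD80, with 6 to 7 counts in each control, passed the count filter through its melittin libraries only. It is part of these counts, of those below and of the median. Most of the transcriptome passed this test, 76.4% of genes, so that 5 of 7 members (71.4%) passing in either direction is near the background. By direction, 38.1% of all tested genes were higher and 38.3% lower. In 5 of the 7 tested members the 3 melittin and 3 control values did not overlap, against 77.4% of all tested genes. Against a fold change of 1.5 in place of 0, CD80, CD274, VSIR and ICOSLG passed, 4 of 7, where 29.1% of all tested genes did. The median log2 fold change of the 7 was 1.01, against −0.007 over all tested genes.

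**Figure D1:**
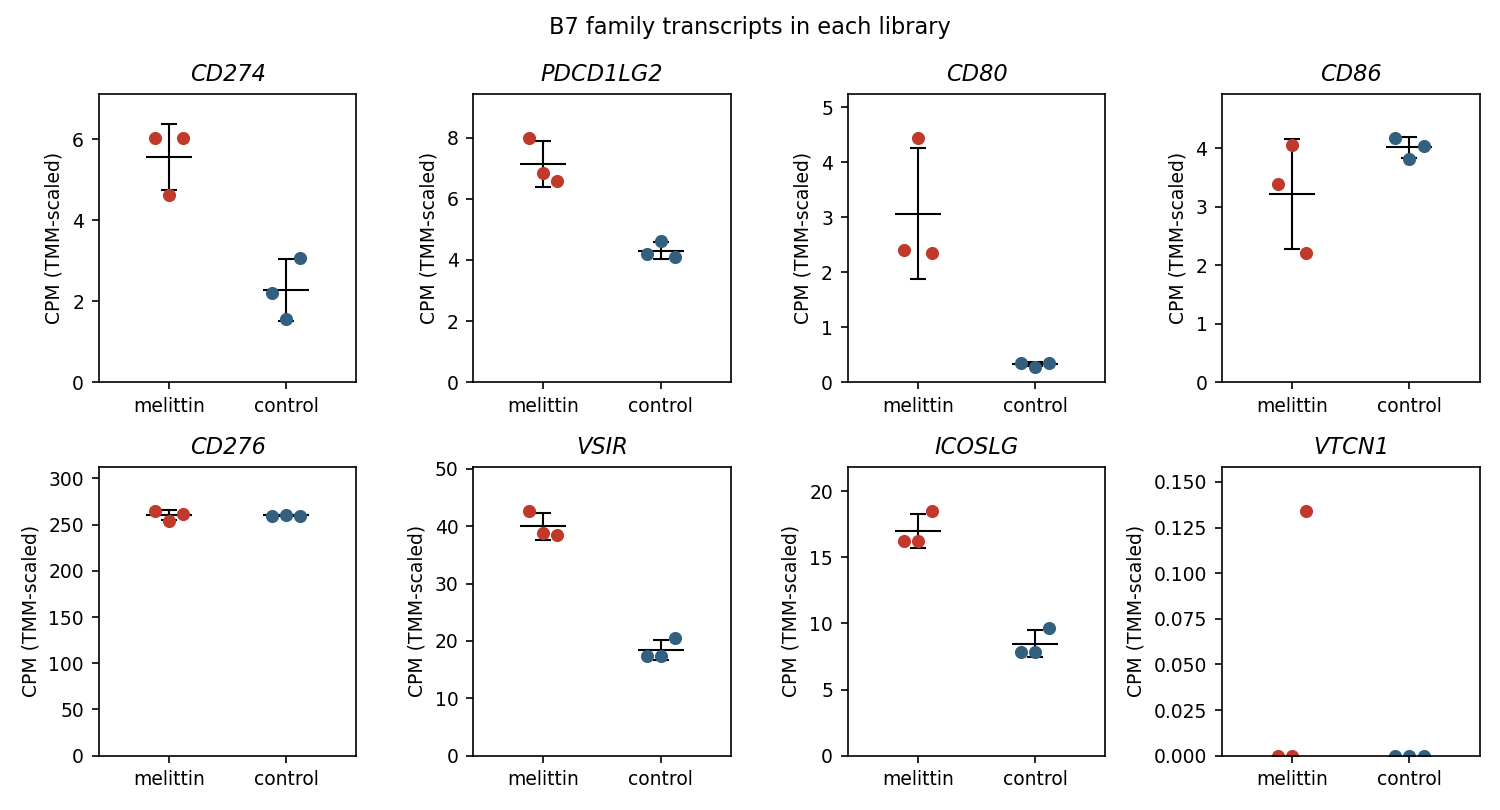
CPM (TMM-scaled) of the 8 B7 family genes in each of 3 melittin libraries (red) and 3 control libraries (blue). Horizontal bars with whiskers are the mean ± SD (not drawn for VTCN1); CD80 has its highest value in melittin replicate 2 at 4.45 CPM, while CD276 lies near 260 CPM in both groups.

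The ligands of PD-1 were both higher. CD274 (ENSG00000120217, GRCh38 chromosome 9, 5450503 to 5470566, plus strand), the gene of PD-L1, had 93, 83 and 90 counts in melittin replicates 1, 2 and 3, against 45, 33 and 53 in control replicates 1, 2 and 3. These counts correspond to 6.05, 4.62 and 6.03 CPM with melittin and to 2.21, 1.55 and 3.06 CPM in the controls, so the lowest melittin library lay above the highest control. The log2 fold change was 1.30 (SE 0.206, 95% interval 0.88 to 1.73, adjusted p = 2.47e-06, edgeR). The spread among the controls was wide for so low a transcript, 2.28 ± 0.756 CPM (SD, n = 3), and the log2 fold change was 1.08 without control replicate 2 and 1.55 without control replicate 3.

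PDCD1LG2 (ENSG00000197646, chromosome 9, 5510531 to 5571282, plus strand), which encodes PD-L2, the second ligand of PD-1, had 123, 123 and 98 counts with melittin and 85, 98 and 71 in the controls. Raw counts touch at 98, but after scaling for library size the values were 8.0, 6.85 and 6.57 CPM with melittin and 4.18, 4.62 and 4.10 CPM in the controls, with no overlap. The log2 fold change was 0.73 (SE 0.142, 95% interval 0.43 to 1.02, adjusted p = 4.85e-05, edgeR), and PDCD1LG2 did not pass against 1.5-fold (adjusted p = 0.173, edgeR glmTreat). Whether CD274 moved more than PDCD1LG2 was tested by the ratio of their counts within each library, which no scaling of libraries changes. The log2 ratio of CD274 to PDCD1LG2 averaged −0.36 ± 0.22 with melittin and −0.96 ± 0.57 in the controls (SD, n = 3), a difference of 0.60. The melittin values of this ratio ran from −0.56 to −0.12 and the control values from −1.56 to −0.42, so the groups overlapped (two-sided exact permutation test, p = 0.2, where 3 against 3 libraries allow no p below 0.1). The difference was 0.30 without control replicate 2 and 0.87 without control replicate 3.

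Among the ligands of CD28 and CTLA-4, CD80 rose and CD86 did not pass. CD80 (ENSG00000121594, chromosome 3, 119524293 to 119559614, minus strand), also called B7-1, had 37, 80 and 35 counts in melittin replicates 1, 2 and 3, against 7, 6 and 6 counts in the controls. In CPM the melittin values were 2.41, 4.45 and 2.35 and the control values 0.344, 0.283 and 0.347, and melittin replicate 2 stood above the other melittin libraries. The fold change was 9.46 (log2 3.24, SE 0.359, 95% interval 2.50 to 3.98, adjusted p = 5.2e-09, edgeR). Without melittin replicate 2 the log2 fold change was 2.85. The size of the fold rests on control libraries in which 1 count is worth 0.0471 to 0.0578 CPM. CD80 was tested only because its melittin counts passed the filter, so its adjusted p is no separate support for the rise.

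CD86 (ENSG00000114013, chromosome 3, 122055362 to 122121139, plus strand), or B7-2, had 52, 73 and 33 counts with melittin and 85, 81 and 70 in the controls. The melittin libraries spread widely, at 3.38, 4.06 and 2.21 CPM, and the highest of them lay within the control range of 3.81 to 4.18 CPM. The log2 fold change was −0.30 (SE 0.195, 95% interval −0.70 to 0.10, adjusted p = 0.164, edgeR). It was −0.52 without melittin replicate 2 (adjusted p = 0.0359, edgeR) and −0.10 without melittin replicate 3 (adjusted p = 0.641, edgeR), and −0.53 without TMM (adjusted p = 0.0153, edgeR).

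Set against each other within a library, CD80 and CD86 came closer with melittin. The log2 ratio of CD80 to CD86 counts was −0.49, 0.13 and 0.08 in melittin replicates 1, 2 and 3, against −3.51, −3.65 and −3.44 in control replicates 1, 2 and 3. Melittin libraries thus held about as many CD80 as CD86 counts, while CD86 counts were well above CD80 counts in each control. The difference was 3.44, with no overlap of the groups (two-sided exact permutation test, p = 0.1, the smallest that 3 against 3 libraries allow; adjusted p = 0.2 over the 2 ratios compared by exact permutation test). Leaving out any 1 library kept the difference between 3.33 and 3.64.

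**Figure D2:**
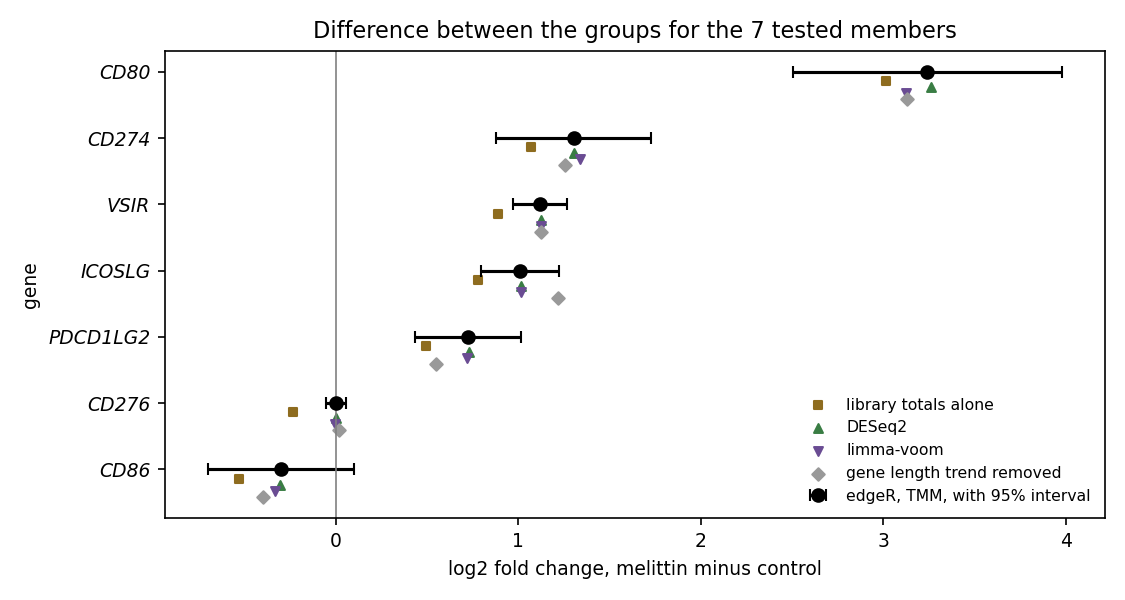
Log2 fold change of the 7 tested members, melittin minus control. Black points with bars are edgeR estimates with 95% intervals, and coloured marks are estimates under other scalings or tools; CD80 stands at 3.24, CD86 and CD276 have intervals that cross 0, and scaling by library totals only lies 0.23 below the black points.

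Outside the CD28 and PD-1 ligands, VSIR and ICOSLG rose. VSIR (ENSG00000107738, chromosome 10, 71747556 to 71773520, minus strand) encodes VISTA, an inhibitory protein abundant on myeloid cells. It had 656, 697 and 575 counts with melittin and 355, 370 and 355 in the controls, or 42.7, 38.8 and 38.5 CPM against 17.5, 17.4 and 20.5 CPM. The groups lay far apart, with a fold change of 2.17 (log2 1.12, SE 0.0731, 95% interval 0.97 to 1.27, adjusted p = 1e-13, edgeR). The span of VSIR lies within that of CDH23 on the opposite strand, which was also higher with melittin (10.3 ± 0.343 against 3.63 ± 0.803 CPM, SD, n = 3). Whether strand was used in counting is not given in the sources used here, and without strand the reads of overlapping genes cannot be told apart.

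ICOSLG (ENSG00000160223, chromosome 21, 44215382 to 44241446, minus strand), the ligand of the co-stimulatory receptor ICOS, had 250, 292 and 276 counts with melittin and 160, 167 and 167 in the controls. In CPM these were 16.3, 16.3 and 18.5 against 7.87, 7.86 and 9.65, again without overlap. The fold change was 2.02 (log2 1.01, SE 0.104, 95% interval 0.80 to 1.23, adjusted p = 1.36e-09, edgeR). Removing the trend of each library on gene length gave 1.22.

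CD276 and VTCN1 were the extremes of level. CD276 (ENSG00000103855, chromosome 15, 73683966 to 73714514, plus strand), which encodes B7-H3, a ligand found on many tumour and myeloid cells, had 4071, 4563 and 3903 counts with melittin and 5276, 5531 and 4494 in the controls. Scaled by TMM, it measured 260.1 ± 5.54 CPM with melittin and 259.9 ± 0.485 CPM in the controls (SD, n = 3), with overlapping groups. The log2 fold change was 0.000453 (95% interval −0.05 to 0.06, adjusted p = 0.988, edgeR). This value depends on how libraries are scaled. Without TMM CD276 stood at −0.23 (adjusted p = 1.29e-08, edgeR), a move as large as the 0.23 by which the median of all tested genes shifts.

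VTCN1 (ENSG00000134258, chromosome 1, 117143587 to 117210960, minus strand), which encodes B7-H4, had 0, 0 and 2 counts with melittin and 0 counts in each control, and was not tested. A count of 0 in the 3 controls together allows up to 0.051 CPM (3 counts, counting error only), so no difference was detectable at this depth.

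Levels of different genes were compared per gene length, as FPKM, which the authors made from counts, gene length and library total. CD276 was by far the most abundant member, at 43.8 ± 1.06 FPKM with melittin and 51.3 ± 0.128 FPKM in the controls (SD, n = 3), rank 813 and 670 among all 20036 genes. VSIR came next at 7.16 ± 0.437 FPKM with melittin and 3.88 ± 0.368 FPKM in the controls, then PDCD1LG2 at 2.71 ± 0.297 FPKM with melittin and 1.91 ± 0.124 FPKM in the controls. With melittin, CD274 (1.25 ± 0.187 FPKM), CD80 (0.881 ± 0.342 FPKM), CD86 (0.864 ± 0.251 FPKM) and ICOSLG (0.807 ± 0.0606 FPKM) followed, and no neighbours among these 4 were separate, since the ranges of each over its 3 libraries overlapped those of the next. In the controls the order was CD86 (1.26 ± 0.0584 FPKM), CD274 (0.6 ± 0.199 FPKM), ICOSLG (0.471 ± 0.0567 FPKM) and CD80 (0.109 ± 0.0122 FPKM), of which CD274 and ICOSLG overlapped and the other neighbours were separate. PD-L2 transcript was above PD-L1 transcript in all 6 libraries. The place of ICOSLG rests on the length of 19441 bases in the table, the longest of the 8, whose others run from 2432 to 5482 bases. Without division by length it ranks 3 in both groups, in place of 7 with melittin and 6 in the controls.

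**Figure D3:**
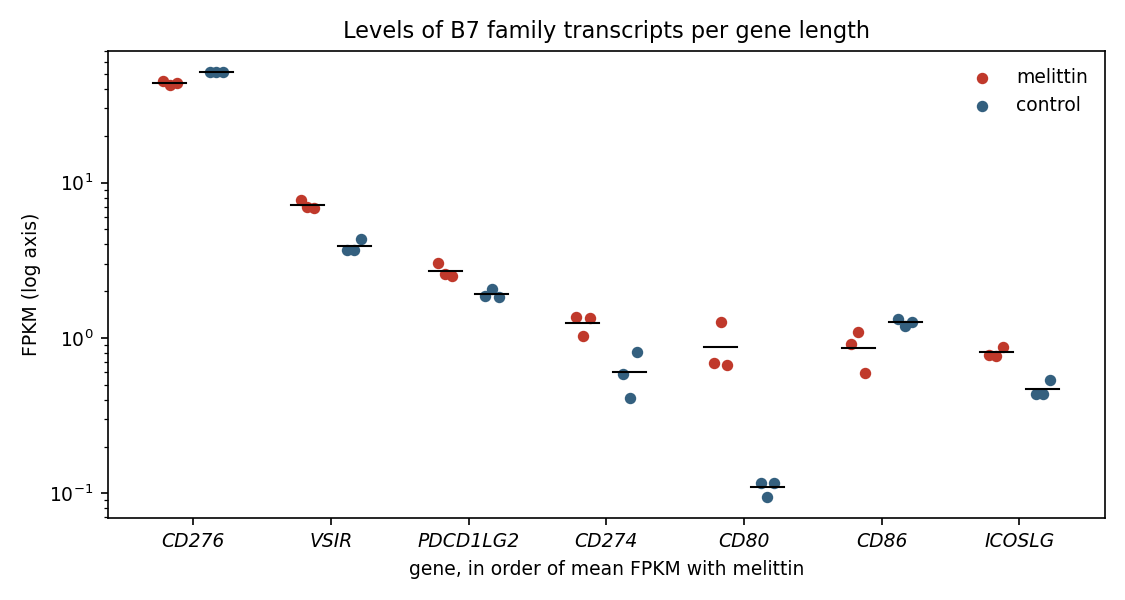
FPKM of 7 members on a log axis, in order of mean FPKM with melittin, with 3 melittin libraries (red) left of 3 control libraries (blue) and short black lines at the means. VTCN1, at 0 FPKM in 5 of 6 libraries, is left out; CD276 lies above 40 FPKM in every library, and CD80 spans 0.0953 FPKM in the lowest control to 1.28 FPKM in the highest melittin library.

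The make-up of the family differed between the groups. The 8 members summed to 59.2, 56.3 and 56.9 FPKM with melittin and 59.3, 59.3 and 60.1 FPKM in the controls, a scale without TMM. CD276 made up 76.2 ± 0.959% of that sum with melittin and 86.2 ± 0.805% in the controls (SD, n = 3). VSIR held 12.5 ± 0.442% with melittin and 6.51 ± 0.566% in the controls, and PDCD1LG2 4.71 ± 0.397% and 3.21 ± 0.223%. CD274 held 2.17 ± 0.293% with melittin and 1.01 ± 0.326% in the controls, CD80 1.54 ± 0.628% and 0.184 ± 0.0199%, and ICOSLG 1.41 ± 0.121% and 0.791 ± 0.089%. CD86 held 1.5 ± 0.446% with melittin and 2.12 ± 0.0986% in the controls. These shares do not depend on library scaling, and for each of these 7 genes the melittin and control libraries did not overlap. No background over all genes was computed for such shares. In CPM, a different measure, the groups did not overlap in 5 of the 7 tested members and in 77.4% of all tested genes. The shares are parts of the same sum, so a rise in some members lowers the shares of others. CD86 and CD276 overlapped in CPM.

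In the Gene Ontology terms of the deposited table, 6 of the 8 members carry positive regulation of T cell proliferation, a term held by 63 genes of the table. Of these 6, all but CD276 also carry negative regulation of T cell proliferation, held by 45 genes. The term for T cell costimulation is on CD274, PDCD1LG2, CD80 and CD86. CD274, PDCD1LG2 and VSIR share the term for lowering interferon-gamma production.

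CD274 and PDCD1LG2 are neighbours, 40.0 kb apart on the same strand of chromosome 9. Other tested genes around them did not share their rise. PLGRKT, a plasminogen receptor gene 12.6 kb before CD274, measured 26.0 ± 2.49 CPM with melittin and 27.9 ± 1.67 CPM in the controls (log2 fold change −0.09, adjusted p = 0.255, and −0.33 without TMM, adjusted p = 0.000271, edgeR). RIC1, 57.7 kb beyond PDCD1LG2, fell by 0.46 and ERMP1, 178.6 kb beyond, by 0.36 on the log2 scale (adjusted p = 3.16e-10 and 3.45e-08, edgeR). The spans of RIC1 and ERMP1 overlap, so reads there may be shared. RLN1, RLN2 and INSL4 had 6, 3 and 0 counts over the melittin libraries and 3, 1 and 1 over the controls, and were not tested. CD80 and CD86 lie 2.5 Mb apart on chromosome 3, and the end of CD80 overlaps TIMMDC1 on the opposite strand, whose log2 fold change of 0.22 is within the shift between scalings. Within 250 kb of any member there were 48 other genes, of which 29 were tested, 12 higher and 9 lower. Their median log2 fold change was −0.09, and 41.4% of those tested were higher, against 38.1% of all tested genes.

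**Figure D4:**
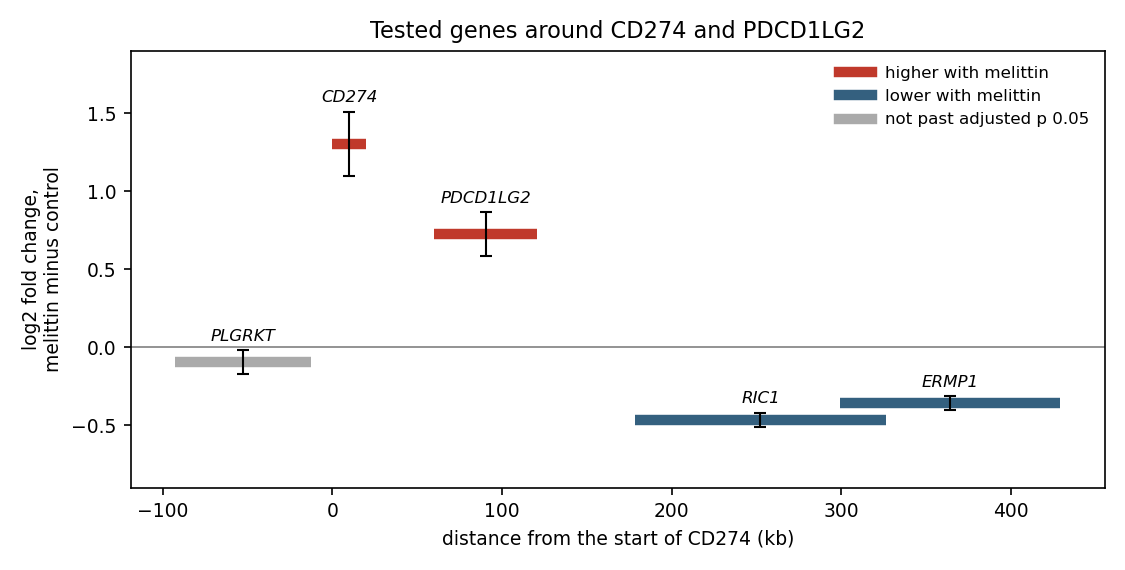
Tested genes around CD274 by distance from its start in kilobases. Each bar spans 1 gene at its log2 fold change (melittin minus control), with its SE as a whisker; CD274 (1.30) and PDCD1LG2 (0.73) are above 0, and RIC1 and ERMP1 are below it.

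The genes with profiles nearest to CD274 over the 6 libraries, by Euclidean distance between centred log2 CPM among genes with a mean of at least 1 CPM, were FRMD7 (distance 0.185), HOXC10 (0.205) and IL32 (0.228). Their log2 fold changes were 1.29, 1.33 and 1.36, and like CD274 each was lowest in replicate 2 of both groups. This likeness follows from choosing genes by nearness over the same 6 libraries, and is not a separate result. All of these genes are low transcripts that share library and depth. Among the members, VSIR was number 55 and ICOSLG number 75 in nearness to CD274 of 12029 tested genes, PDCD1LG2 number 1629 and CD80 number 8369.

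Of the other genes named B7 homologues, HHLA2 and NCR3LG1 moved in opposite directions. HHLA2 (B7-H7) had 19, 21 and 20 counts with melittin and 0 in each control, at least 24.4-fold higher against a floor of 3 counts over the controls together. It passed the count filter through its melittin libraries only, so its adjusted p (2.93e-08, edgeR) is no separate support for a rise. NCR3LG1 (B7-H6), the ligand of the natural killer cell receptor NKp30, had 35, 43 and 36 counts with melittin and 100, 134 and 88 in the controls, 2.31-fold lower (adjusted p = 9.55e-07, edgeR). ILDR2 had 2 and 10 counts in the groups and was not tested. Butyrophilins, relatives of B7 in structure, were higher in 5 of 6 tested genes and lower in 0 (1 without TMM), with 0.73 as the median log2 fold change. Among all tested genes, 38.1% were higher and 38.3% lower. BTN3A1 measured 29.3 ± 2.75 CPM with melittin and 13.6 ± 0.254 CPM in the controls (SD, n = 3), and BTN3A2, BTN2A2 and BTN3A3 rose by 0.85, 0.61 and 0.44 on the log2 scale. BTN3A3 did not pass on log2(FPKM + 0.1) or log2(FPKM + 1) (adjusted p = 0.056 and 0.0584, limma). Neither BTN3A3 nor BTN2A2 passed against 1.5-fold. The BTN3A genes are close copies, so the division of their reads is uncertain.

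The receptors of the B7 ligands were at or near 0 counts where they are genes of lymphocytes. CD28 and ICOS had 0 counts in every library and CTLA4 had 1 in all. PDCD1, which encodes PD-1, had 1, 4 and 1 counts with melittin and 0 in each control, too few to be tested. RGMB, a partner of PD-L2 and co-receptor for bone morphogenetic proteins, measured 8.86 ± 0.577 CPM with melittin and 24.9 ± 2.14 CPM in the controls (SD, n = 3), 2.81-fold lower (adjusted p = 4.69e-14, edgeR). SELPLG, a partner of VISTA, measured 9.26 ± 0.93 CPM with melittin and 8.74 ± 0.57 CPM in the controls and did not pass (adjusted p = 0.526, edgeR).

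The genes by which interferon acts on CD274 moved in both directions, 4 of 13 tested higher and 7 lower, with −0.19 as the median log2 fold change. Here too the background is 38.1% of all tested genes higher and 38.3% lower. The kinase gene JAK2 measured 25.2 ± 1.61 CPM with melittin and 46.2 ± 0.688 CPM in the controls (SD, n = 3). The kinase genes JAK1 and TYK2 rose by 0.72 and 0.53 on the log2 scale. IRF1, a factor that binds the CD274 promoter, measured 24.2 ± 1.71 CPM with melittin and 22.9 ± 1.1 CPM in the controls (adjusted p = 0.337, edgeR); it was chosen after its values were seen.

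NF-kB subunits and other factors described at CD274 or CD80 were higher in 7 and lower in 4 of 12 tested genes, against 4 and 5 without TMM. The median was 0.24 with TMM and 0.0063 without. With TMM, 38.1% of all tested genes were higher and 38.3% lower. FOS measured 161.3 ± 4.35 CPM with melittin and 80.8 ± 2.02 CPM in the controls (SD, n = 3). HIF1A, the hypoxia factor, and NFKB2 rose by 1.29 and 0.63 on the log2 scale, and MYC fell by 1.81.

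Genes that act on the PD-L1 or CD86 protein were higher in 5 and lower in 8 of 17 tested (4 and 11 without TMM), with a median of −0.09. All tested genes were higher in 38.1% and lower in 38.3%. CMTM6, which holds PD-L1 at the surface and protects it from lysosomal breakdown, fell by 0.44 on the log2 scale (adjusted p = 4.88e-13, edgeR). ADAM17, a sheddase, fell by 0.43, while STT3A, a catalytic subunit of the enzyme that attaches N-glycans, and ARIH1, a ubiquitin ligase, rose by 0.69 and 0.41. MARCHF1, a ubiquitin ligase that removes CD86 from the surface, had 5, 15 and 12 counts with melittin and 66, 76 and 41 in the controls (log2 fold change −2.21, adjusted p = 2.49e-07, edgeR); it was chosen after its values were seen.

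Other co-stimulatory genes were higher in 7 and lower in 1 of 9 tested, with a median of 1.21. For this list and the next, 76.4% of all tested genes passed, 38.1% higher and 38.3% lower. CD40, the receptor through which T cells activate macrophages, measured 70.5 ± 2.27 CPM with melittin and 20.3 ± 0.886 CPM in the controls (SD, n = 3). TNFSF15 and TNFSF14 (LIGHT) rose by 1.21 and 1.20 on the log2 scale, and TNFSF18, the ligand of GITR, fell by 2.60. Checkpoint ligands outside the B7 family were higher in 6 and lower in 2 of 8 tested (5 and 2 without TMM), with a median of 0.42. HLA-E, a ligand of the inhibitory receptor NKG2A, rose by 1.31, NECTIN2 and NECTIN3 rose by 0.59 and 0.43, and LGALS9, which encodes galectin-9, fell by 1.10.

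Genes typical of mature dendritic cells, which also carry CD80 and PD-L1, were higher in 7 and lower in 1 of 9 tested (6 and 2 without TMM), with a median of 1.94. By comparison, 76.4% of all tested genes passed, 38.1% higher and 38.3% lower. CCR7, the receptor that guides cells to lymph nodes, measured 35.9 ± 2.3 CPM with melittin and 0.623 ± 0.206 CPM in the controls (SD, n = 3). EBI3, a cytokine subunit, and CD83 rose by 1.94 and 1.19 on the log2 scale, and MARCKSL1 fell by 0.89. Of the markers of conventional dendritic cells, FCER1A and CLEC10A were at 0 and CLEC9A and XCR1 had 1 and 2 counts in all.

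**Figure D5:**
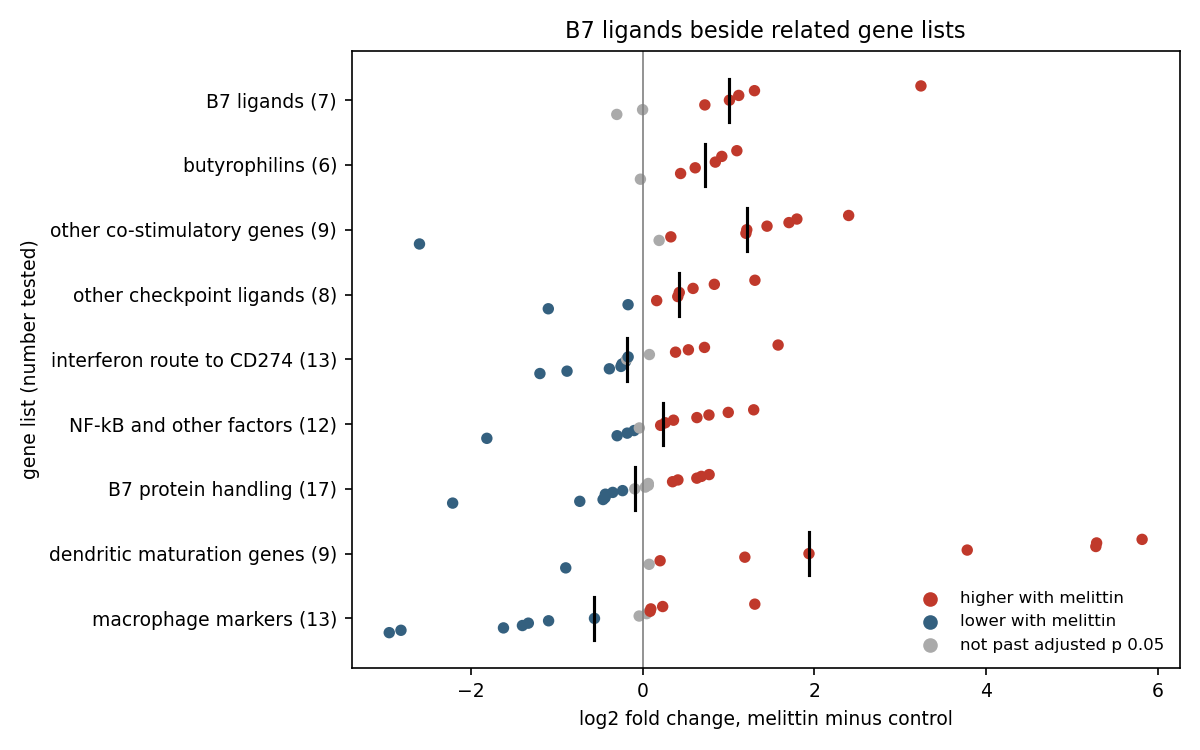
Log2 fold change (melittin minus control) of every tested gene in 9 lists, with the number tested in brackets. Red points were higher, blue points lower and grey points not past an adjusted p of 0.05, and black lines are list medians; the B7 ligands have a median of 1.01 and the genes of the interferon route −0.19.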

How the data were processed

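RNA was prepared by a chloroform method and made into libraries with a NEBNext Ultra II kit, per the labels' protocols. The deposited table gives the authors' raw read counts per gene. It also gives FPKM that the authors made from those counts, the gene length in the table and the library total (largest relative deviation 2.23e-09 at 20 or more counts); a further table repeats the FPKM. The genome build was GRCh38, per the submitters' processing notes; the sources used here do not name the aligner, the counting program or the strand setting. Coordinates come from the deposited table.

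Counts were filtered by filterByExpr, scaled by TMM and compared with edgeR 4.0.16 (glmQLFit, glmQLFTest, two-sided) in R 4.3.3. The filter keeps a gene whose counts are high enough in the libraries of 1 group. Genes near 0 in the other group were thus tested only through the group where they are high. CPM use TMM-scaled library sizes. Each SE was obtained from the log2 fold change and its F statistic. Ratios used a pseudocount of 0.5. The steps were tested on simulated counts in which few genes differed, in random directions. That simulation does not test the scaling where most genes pass, as in these data. Before averaging, replicates were compared by chi-square over genes. Per degree of freedom it was 2.23 to 3.92 between melittin libraries and 1.73 to 1.76 between controls. Each library was counted as 1 replicate, though these values cannot tell separate cultures from repeats of 1 culture. Intervals on counts of 0 cover counting error only.

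The members and the 16 gene lists were chosen with earlier results of these data known. Named genes are all members, up to 4 passing genes per list with the smallest adjusted p (or the 2 most abundant where none passed), tested genes near CD274 or PDCD1LG2, and the 3 genes nearest to CD274; others were chosen after their values were seen. Alternatives were DESeq2 1.42.0, limma 3.58.1 (voom, and log2 of FPKM plus 0.1 or 1), other scalings and filters, and leaving out each library. Leaving out libraries in the ratios was chosen after seeing the data. Results on some listed genes are not reported here.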

Additional observations from a re-analysis of the deposited data

How the results depend on the processing

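CD274 stayed higher with melittin and past the threshold in all 17 alternatives, with log2 fold changes of 1.08 to 1.55 when 1 library was left out and of 0.50 on log2(FPKM + 1), a scale that understates changes of low genes. CD80, VSIR and ICOSLG also stayed past the threshold in all 17, and PDCD1LG2 in 16, the exception being the test against 1.5-fold (adjusted p = 0.173, edgeR). The number of B7 ligands called higher was 5 throughout, and 4 against 1.5-fold. The number called lower was 0, but 2 without TMM (library totals only) and on log2(FPKM + 0.1) or log2(FPKM + 1), and 0 to 1 when 1 library was left out (CD86 without melittin replicate 2). These scalings share the library total. They move the median of all genes by −0.23 without TMM, and by −0.21 and −0.13 on log2(FPKM + 0.1) and log2(FPKM + 1). In that order, the share of called genes that are higher becomes 33.6%, 33.4% and 33.5%, against 49.8% in the TMM fit. CD276, near 0, changed sign to −0.23 without TMM, −0.23 and −0.23 on the 2 FPKM scales, −0.000565 with voom, −0.0183 without a filter and −0.0154 to 0.0173 with 1 library left out. CD86 passed without TMM (−0.53), on FPKM (−0.54 and −0.29) and without melittin replicate 2 (−0.52). Genes past the threshold numbered 9190, against 3495 for 1.5-fold and 8857 to 9147 with 1 library left out. Same-numbered libraries did not deviate together (correlations −0.05 to 0.02, and 1 of 3 melittin libraries was nearest to its own number); with the replicate number as a block, CD274 had 1.31, and 9050 genes passed. For CD80, depth limits the fold, since controls had 6 to 7 counts.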
